A study of Mus musculus with 3 samples.

Results

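The 4 Hox gene clusters of the mouse were described by DNA methylation in ID8, a mouse ovarian cancer cell line. Members were the CCCGGG sites whose deposited mm9 positions lay in 4 windows, chr6:52100000-52216000 for Hoxa, chr11:96050000-96235000 for Hoxb, chr15:102745000-102875000 for Hoxc and chr2:74500000-74610000 for Hoxd. The windows held 172 of the 173449 listed sites, and 70 of these were covered, which means at least 10 reads in each of the 3 libraries, against 24112 covered sites in all. Hoxa had 26 covered of 44 listed sites, Hoxb 17 of 46, Hoxc 10 of 35 and Hoxd 17 of 47.

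The samples are 3 libraries of untreated ID8, labelled as female C57BL/6 ovarian surface epithelial cells, grown in RPMI with serum and gentamicin, with no control group. ID8 is 1 line, so nothing here separates the line from its tissue of origin, and the labelled cell type could not be checked against markers because no expression was measured. The series design describes independent samples without naming separate cultures. Any SD or p over libraries therefore reflects how far these 3 samples differ, and that variation may be technical. In digital restriction enzyme analysis of methylation (DREAM), SmaI cuts unmethylated CCCGGG and XmaI then cuts the remaining sites, so that each read end records 1 site as unmethylated or methylated.

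Hox genes encode homeodomain transcription factors that give cells their position along the body axis. Mouse Hox genes lie in 4 clusters with members numbered in order along the chromosome. Genes at the low-numbered end are used at the front of the embryo and those at the high-numbered end at the rear. In the female reproductive tract, Hoxa9, Hoxa10, Hoxa11 and Hoxa13 pattern the Müllerian duct from oviduct to vagina. In many cells silent Hox genes are held by Polycomb proteins at CpG-rich DNA that is free of methylation, and gain of methylation there is well known in cancer lines.

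All 38 member genes were found in the RefSeq gene table of GRCm38. By start position in that build, Hoxa ran from Hoxa2 at the lower coordinates to Hoxa13, whereas Hoxb ran from Hoxb13 to Hoxb1, Hoxc from Hoxc13 to Hoxc4 and Hoxd from Hoxd13 to Hoxd1. This order was not checked on mm9, and no site is assigned to a gene, exon or promoter here, because the annotation used is of another build than the deposited positions.

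RefSeq promoter sequences (GRCm38, 250 bases before to 50 after a start) were matched for 22 of the 38 genes, as 24 promoters. In Hoxb only Hoxb1, Hoxb4 and Hoxb8 were matched and in Hoxc only Hoxc4, so the values below mostly describe Hoxa and Hoxd. The sequence CCCGGG, which is its own reverse complement, was present in 8 of the 24 (33.3%), against 4436 of all 32851 promoters of the same 300-base length (13.5%). The median promoter of the members held 14.5 CpG dinucleotides, against 7 over all promoters. One promoter of each cluster that had such a match is printed to give the context in which the assay can read a Hox promoter, with CCCGGG in capitals. They are Hoxa6 (chr6:52208623-52208922, minus strand), a gene of the middle of its cluster, Hoxb1 (chr11:96365508-96365807, plus strand), the hindbrain gene at the front end of Hoxb, and Hoxd10 (chr2:74691641-74691940, plus strand), a limb and hindbody gene.
Hoxa6: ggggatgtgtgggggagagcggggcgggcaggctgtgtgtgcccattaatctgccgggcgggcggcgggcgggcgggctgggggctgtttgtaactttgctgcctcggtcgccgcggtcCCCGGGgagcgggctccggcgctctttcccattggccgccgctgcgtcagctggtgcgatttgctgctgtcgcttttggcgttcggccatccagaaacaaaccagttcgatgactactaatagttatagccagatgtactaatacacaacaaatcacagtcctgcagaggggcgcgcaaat
Hoxb1: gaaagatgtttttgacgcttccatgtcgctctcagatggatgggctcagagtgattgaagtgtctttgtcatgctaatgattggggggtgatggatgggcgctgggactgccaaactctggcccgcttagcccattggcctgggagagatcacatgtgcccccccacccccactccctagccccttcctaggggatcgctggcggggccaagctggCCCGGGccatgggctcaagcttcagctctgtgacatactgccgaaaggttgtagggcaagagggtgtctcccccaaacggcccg
Hoxd10: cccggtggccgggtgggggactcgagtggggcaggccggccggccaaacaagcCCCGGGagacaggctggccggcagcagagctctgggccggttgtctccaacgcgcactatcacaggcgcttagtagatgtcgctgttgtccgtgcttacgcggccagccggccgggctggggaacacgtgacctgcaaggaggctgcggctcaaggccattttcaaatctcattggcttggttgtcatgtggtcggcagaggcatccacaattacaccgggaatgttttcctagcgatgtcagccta
The assayed sequence starts at base 120 of the Hoxa6 promoter, 217 of Hoxb1 and 54 of Hoxd10. The matched promoter of Hoxc, that of Hoxc4, held no such match.

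Total reads were 7689526, 9190335 and 10361138 in replicates 1, 2 and 3, of which 20162, 23004 and 25604 lay in the windows. The covered sites held 98.6% of the reads in the windows, and the median covered Hox site had 194.5, 195.5 and 229 reads in the 3 libraries. Counting error alone is covered by the 95% intervals, which are exact Clopper-Pearson ones, and by the upper limits for sites with 0 methylated reads, which are set at 3 reads of the total.

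Most covered sites of the Hox clusters were methylated. The level of a site is its methylated share of reads, averaged over libraries. The mean over the 70 covered sites was 69.3% ± 0.860 (SD, n = 3), with 68.6%, 70.3% and 69.1% in replicates 1, 2 and 3. Sites were classed as high (70% or more), partial (10% to under 70%) or low (under 10%). High sites numbered 45 of 70 (64.3%), against a background of 38.8% of the 23568 covered autosomal sites outside the windows. Low sites numbered 10 (14.3%), against 45.8%, and partial sites 15 (21.4%), against 15.4%. Of the Hox sites, 30 were at 95% or more, and 5 were methylated in every read of every library. At the other end, 6 sites were under 1%, and 2 were unmethylated in every read. Shares at these limits were not counted for the other autosomal sites, whose levels also ran from 0% to 100%.

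The mean of the Hox sites lay 26.2 percentage points ± 0.700 (SD, n = 3) above the 43.1% of the other autosomal sites, in 3 of 3 libraries (exact sign-flip permutation p = 0.25, two-sided, the smallest p that 3 libraries allow). Methylation is usually low where CpG-rich sites crowd together, so the comparison was repeated by spacing. Clustered sites are those that have 2 or more listed neighbours no further than 500 bp away, and isolated sites have none. The 14 clustered Hox sites averaged 68.1% ± 1.63 (SD, n = 3) and the 7317 other clustered autosomal sites 27.4% ± 0.123, a difference of 40.7 points ± 1.51 in 3 of 3 libraries (exact sign-flip permutation p = 0.25). Of the clustered Hox sites 9 (64.3%) were high, against 23.6% of the background of the same spacing, 3 (21.4%) were low, against 63.2%, and 2 (14.3%) were partial, against 13.2%. The clusters split here: the 7 clustered sites of Hoxd averaged 47.1% ± 0.75 and included all 3 low ones, whereas the 4 of Hoxb averaged 86.1% ± 3.74, the 2 of Hoxc 99.1% ± 0.307 and the single one of Hoxa 81.3% ± 2.86. With 1 neighbour, 29 of 46 Hox sites (63.0%) were high, against 39.4%, 11 (23.9%) were partial, against 16.9%, and 6 (13.0%) were low, against 43.7%. Among the isolated sites 7 of 10 (70%) were high, against 57.1%, 2 (20%) were partial, against 15.4%, and 1 (10%) was low, against 27.5%. The gap to the background of equal spacing was 24.0 points ± 0.867 (SD, n = 3) for sites with 1 neighbour and 15.5 points ± 0.891 for isolated sites, both in 3 of 3 libraries. The SDs are over libraries, not over sites, and neighbouring sites can be the ends of the same fragments, so whether the windows stand apart from other regions of this size was not tested.

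**Figure D1:**
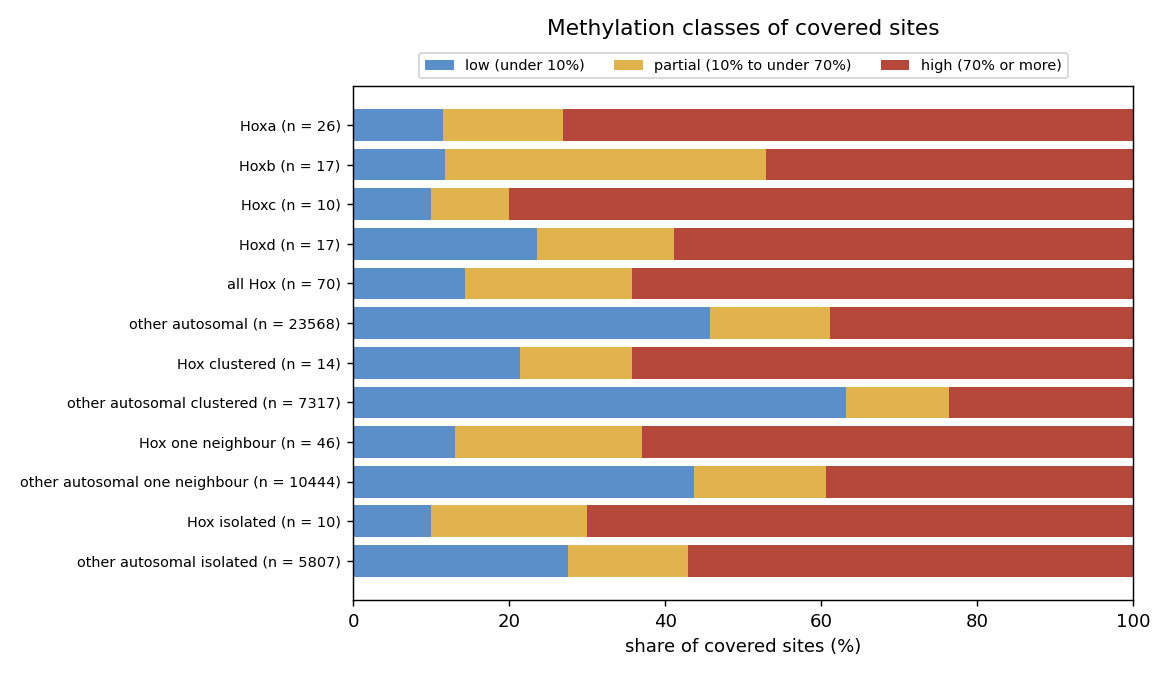
Share of covered sites (x axis, %) that were low, partial or high, for each Hox cluster, for all Hox sites and for the other autosomal sites, in all and by number of neighbouring listed sites; n is the number of sites. High sites made up 64.3% of the Hox sites against 38.8% of the others, and 64.3% against 23.6% among clustered sites.

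The mean of each cluster was above that of the rest of its own chromosome, without regard to spacing, and the clusters differed among themselves. Hoxc had the highest mean, 80.5% ± 0.996 (SD, n = 3), with 79.4%, 81.1% and 81.1% in the 3 libraries. Hoxa followed with 74.6% ± 0.757, at 73.8%, 75.3% and 74.6%. Hoxd averaged 64.9% ± 0.679, at 64.7%, 65.6% and 64.3%. Hoxb was lowest with 59.3% ± 1.48, at 58.3%, 61.0% and 58.5%. The means of no cluster overlapped with those of another over the libraries, although the levels of single sites did. The distance from the other covered sites of the same chromosome was 34.2 points ± 0.775 for Hoxc on chromosome 15, 30.4 ± 0.468 for Hoxa on chromosome 6, 23.4 ± 0.533 for Hoxd on chromosome 2 and 14.9 ± 1.35 for Hoxb on chromosome 11. For Hoxb this gap depended on spacing: its 12 sites with 1 neighbour averaged 47.0% ± 1.47 with 4 (33.3%) high, against 44.2% ± 0.136 and 39.4% for other autosomal sites of that spacing, whereas its 4 clustered sites were at 86.1%.

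Taken in pairs within each library, Hoxc lay 21.3 points above Hoxb (signed difference Hoxb minus Hoxc -21.3 ± 1.24, SD, n = 3) and 15.6 ± 1.09 above Hoxd. Hoxa lay 15.3 ± 0.882 above Hoxb and 9.68 ± 0.612 above Hoxd. Hoxa minus Hoxc was -5.96 ± 0.491, and Hoxb minus Hoxd was -5.60 ± 0.893. Each of the 6 differences had the same sign in 3 of 3 libraries, with an exact sign-flip permutation p of 0.25 (two-sided; 0.25 after Benjamini-Hochberg adjustment over the 6 pairs). They exceeded the spread between libraries but not the spread between sites, whose SD was 31.3 points in Hoxc, 35.4 in Hoxa, 39.5 in Hoxd and 41.2 in Hoxb. The lead of Hoxc rests on 10 sites. With a minimum of 5 reads it had 14 sites and a mean of 68.5%, and Hoxa minus Hoxc became 7.0 points, Hoxb minus Hoxc -3.94 and Hoxc minus Hoxd 1.78. With reads summed over sites, Hoxa was at 76.2%, Hoxc at 67.6%, Hoxd at 58.1% and Hoxb at 43.9%, so that Hoxa came before Hoxc there too. The other sites of chromosome 11 averaged 44.4% with each site weighted equally. Their reads were not summed, so whether Hoxb stays above them on that scale was not tested.

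The clusters also differed in what kind of site they held. In Hoxa 19 of 26 sites (73.1%) were high and 4 partial, and in Hoxc 8 of 10 (80%) were high and 1 partial. Hoxb held 7 partial sites of 17 (41.2%) and 8 high ones (47.1%), and Hoxd held 4 low sites of 17 (23.5%) with 10 high ones (58.8%). The median site was at 94.0% in Hoxa, 93.8% in Hoxc, 87.6% in Hoxd and 58.4% in Hoxb.

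**Figure D2:**
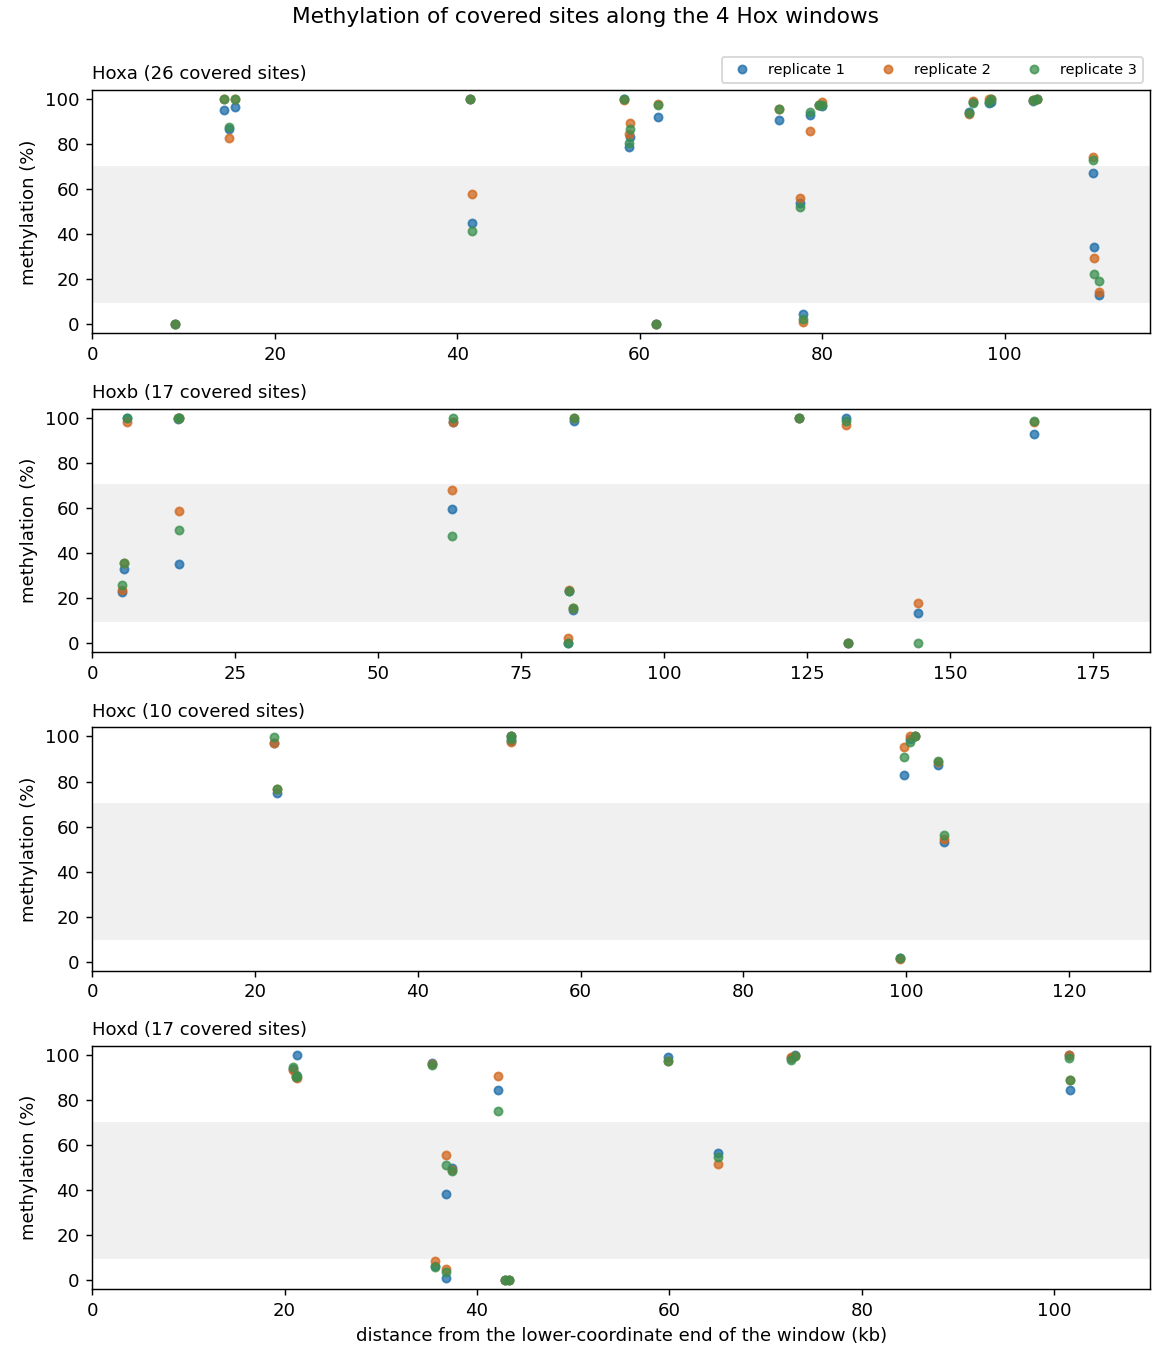
Methylation level (y axis, %) of each covered site in each library against the distance from the lower-coordinate end of its window (x axis, kb), 1 panel per cluster and 1 colour per replicate; the grey band marks the partial class. The 3 libraries lie close together at most sites, and low sites stand beside sites near 100%, as in Hoxd between 35 and 44 kb, where levels run from 0.0539% to 95.9%.

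In Hoxa, the cluster of the Müllerian duct genes, methylation was nearly complete at many sites, but levels varied along the window. Means over segments of 10 kb ran from 15.6% ± 3.17 (1 site, from 110 kb) through 47.9% ± 1.61 (2 sites, 60 to 70 kb) and 67.9% ± 0.636 (5 sites, 70 to 80 kb) to 97.8%, apart from 1 unmethylated site below 10 kb. Between 90 and 100 kb from the lower end of the window, all 4 covered sites were high and averaged 97.8% ± 0.353 (SD, n = 3). The site at 52203517 was methylated in 520 of 520, 605 of 605 and 605 of 605 reads. The site at 52158327 was methylated in 206 of 206, 194 of 195 and 234 of 234 reads, and that at 52198501 in 75 of 76, 134 of 134 and 136 of 136. The site at 52141460 was at 100% in each library, but over only 85 reads. Its neighbour 142 bp away, at 52141602, was at 48.2% ± 8.67 over 87 reads.

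The lowest sites of Hoxa were free of methylated reads. At 52161843, 0 of 204, 0 of 305 and 0 of 367 reads were methylated, which allows a share of up to 0.342% of the 876 summed reads. The next covered site, 193 bp further at 52162036, was at 95.7% ± 3.22 (SD, n = 3), with 23 of 25, 44 of 45 and 37 of 38 reads. This was the largest step of the window, 95.7 points ± 3.22, and it was present in 3 of 3 libraries. At 52109101, near the lower end of the window and thus on the side of Hoxa2, 0 of 92, 0 of 66 and 0 of 70 reads were methylated, which allows up to 1.32%.

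The partial sites of Hoxa lay in 3 places. At 52177569, the deepest of them, 523 of 972, 632 of 1129 and 641 of 1228 reads were methylated, or 54.0% ± 1.90 (SD, n = 3). It stood 388 bp from a low site, 52177957 at 2.72% ± 1.75, which in turn was followed after 727 bp by 52178684 at 91.1% ± 4.70. At the upper end of the window, on the Hoxa13 side, levels went down over 3 consecutive covered sites, from 71.4% ± 3.79 at 52209666 to 28.6% ± 6.03 at 52209838 and 15.6% ± 3.17 at 52210362. The first of these was classed as high and lay just above the limit of 70%. The single run of listed sites with 3 covered members in Hoxa, from 52158327 to 52158946, was high throughout and averaged 89.2% ± 1.91.

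Hoxb had the largest share of partial sites, 7 of 17 (41.2%), beside 8 high and 2 low ones. Near its lower end, on the Hoxb13 side, the sites at 96055174 and 96055587 were at 24.0% ± 1.53 and 34.7% ± 1.51 (SD, n = 3), over 3338 and 3474 reads. Their values in replicates 1, 2 and 3 were 22.6%, 23.7% and 25.6% for the first, and 32.9%, 35.4% and 35.7% for the second. The next covered site, 574 bp on at 96056161, was at 99.4% ± 1.01. A second pair at a middle level was at 96133431, with 23.2% ± 0.235, and 96133979, with 15.3% ± 0.493. It was bounded by a low site at 96133182 (0.813% ± 1.41) and a high site at 96134182 (99.5% ± 0.837). These partial sites were named after their values were seen.

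The highest sites of Hoxb were 96173558, methylated in 319 of 319, 309 of 309 and 381 of 381 reads, and 96065192, methylated in 258 of 258, 478 of 478 and 591 of 592 reads. The lowest was 96182075, with 1 of 602, 1 of 674 and 0 of 758 methylated reads, or 0.105% ± 0.0912 (SD, n = 3). It stood 349 bp from 96181726, at 98.5% ± 1.55, where 200 of 200, 188 of 194 and 218 of 221 reads were methylated. The signed step between the 2 sites was -98.4 points ± 1.55, the largest between adjacent sites in any of the windows. The single run with 3 covered sites, from 96064963 to 96065311, averaged 82.6% ± 3.99. Its first 2 covered sites were at 99.9% and its last, 96065261, was at 48.0% ± 11.8.

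Hoxc was covered thinly, with sites in 4 of its 13 segments of 10 kb. Its highest site, 102846100, was methylated in 793 of 793, 1001 of 1001 and 1066 of 1066 reads. The sites at 102796447 and 102796453 are listed 6 bp apart, the length of the recognition sequence itself. They were at 98.2% ± 0.613 (SD, n = 3) and 100%, with 127 of 127, 93 of 93 and 89 of 89 methylated reads at the second. The site at 102845505 was at 98.8% ± 1.16. The lowest site, 102844246, was methylated in 13 of 903, 8 of 784 and 17 of 958 reads (1.41% ± 0.378), and the next, 469 bp on at 102844715, was at 89.7% ± 6.43 over 73 reads. From there to 102848936, all 4 covered sites were high. The partial site at 102849613, on the Hoxc4 side, was at 54.6% ± 1.60, with 26 of 49, 25 of 46 and 18 of 32 reads.

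Hoxd held the only run of the windows, among those with at least 2 covered sites, that was low throughout. The sites at 74542880 and 74543276 were methylated in 0 of 598, 1 of 662 and 1 of 657 reads and in 0 of 568, 1 of 619 and 0 of 645 reads. Their means were 0.101% ± 0.0875 and 0.0539% ± 0.0933 (SD, n = 3). Before this run, the site at 74542204 was at 83.3% ± 7.83, 676 bp away. Some kilobases lower, 74535318 was at 95.9% ± 0.464, with 531 of 551, 601 of 626 and 776 of 813 reads, and 74535628, at 310 bp, was at 6.83% ± 1.40, with 34 of 534, 51 of 607 and 45 of 787 reads. The signed step was -89.1 points ± 1.31. The summed depth of these 2 sites was similar, 1990 and 1928 reads.

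The partial sites of Hoxd were close to an even split of the raw reads. At 74537354, 122 of 244, 89 of 181 and 99 of 204 reads were methylated (49.2% ± 0.737, SD, n = 3), and at 74565069, 213 of 378, 181 of 352 and 215 of 394 (54.1% ± 2.50). The third, 74536752, was at 38.1% (exact interval 29.4% to 47.5%), 55.5% (48.9% to 62.0%) and 51.2% (44.8% to 57.6%). Replicate 1 was the lowest there. The highest sites were 74573098 at 99.8% ± 0.218, 74601512 at 99.6% ± 0.770, 74572622 at 98.5% ± 0.502 and 74559872 at 98.0% ± 0.879. The run from 74520897 to 74521361, on the Hoxd13 side, had 3 covered sites and averaged 92.7% ± 2.02.

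Position along the cluster was next compared between the parts of each window below and above its midpoint. The difference was large in Hoxd: the 11 sites of the lower part, on the Hoxd13 side, averaged 51.4% ± 1.10 (SD, n = 3) and the 6 of the higher part, on the Hoxd1 side, 89.6% ± 0.187, a signed difference of -38.2 points ± 1.21. In Hoxc the 4 sites of the lower part, on the Hoxc13 side, averaged 93.1% ± 0.644 and the 6 of the higher part 72.2% ± 1.39, a difference of 20.9 ± 1.17. In Hoxa the lower part was at 71.9% over 6 sites and the higher at 75.4% over 20, a difference of -3.49 ± 0.957. In Hoxb the parts were at 58.5% over 12 sites and 61.1% over 5, a difference of -2.63 ± 1.43. Each sign was the same in 3 of 3 libraries (exact sign-flip permutation p = 0.25, two-sided).

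These contrasts rest on where the window is divided. With the ordered covered sites divided evenly in place of the window, the difference was -4.41 points in Hoxd, -11.6 in Hoxc and 7.19 in Hoxb, so that Hoxb and Hoxc changed sign. With a minimum of 50 reads it was -30.5 in Hoxa and -19.0 in Hoxb. The lower part of Hoxa then held only the sites at 52109101, at 0%, and 52115047, at 85.7%. In Hoxa the difference was -4.07 with the sites divided evenly. Hoxa and Hoxd kept their sign under each alternative run, and no common direction from the front to the rear genes was seen over the 4 clusters.

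Steps of over 50 points between neighbouring sites were present in every cluster. Up to 5 kb apart, they were 5 of 19 pairs in Hoxa, 4 of 9 in Hoxb, 1 of 7 in Hoxc and 2 of 11 in Hoxd. Of the 39 pairs of adjacent covered Hox sites up to 1000 bp apart, 11 (28.2%) differed by over 50 points, against 18.2% of 11175 such pairs elsewhere on the autosomes. The mean absolute difference was 31.4 points ± 0.288 (SD, n = 3) in the Hox windows and 21.4 ± 0.0494 elsewhere, a gap of 10.0 ± 0.279 in 3 of 3 libraries (exact sign-flip permutation p = 0.25, two-sided). The median was 13.1 points in the Hox windows against 3.75. From 1000 to 5000 bp the 7 Hox pairs differed by 30.7 points on average and the 898 others by 47.3. The pairs were not matched on level, and elsewhere many pairs are low at both sites, so that the gap and the different class shares cannot be told apart. This comparison was chosen after the tables were seen.

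**Figure D3:**
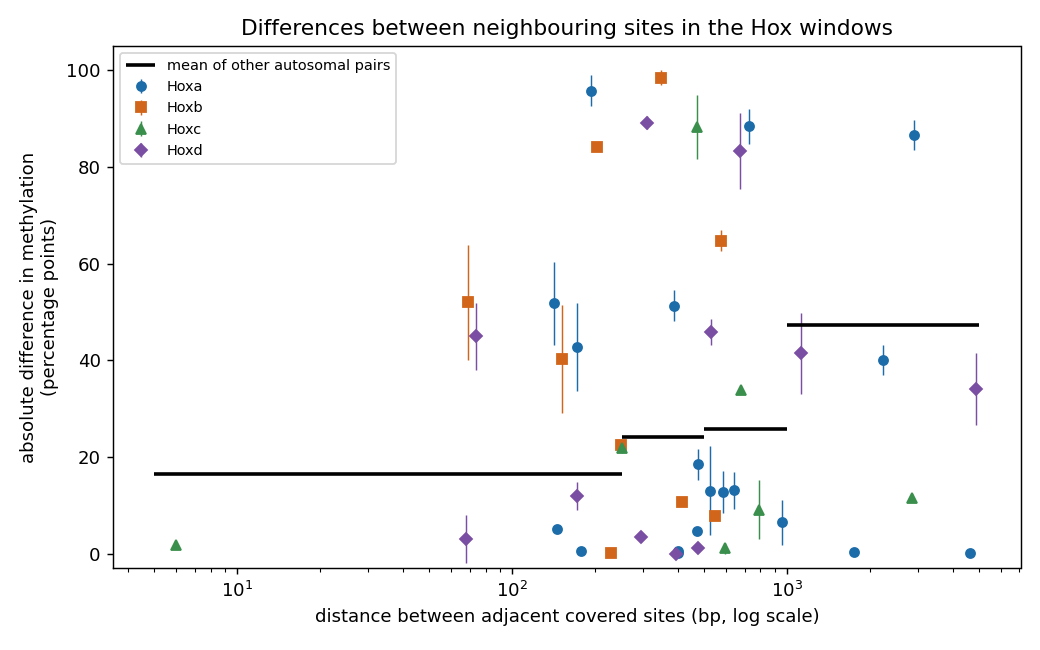
Absolute difference in methylation (y axis, percentage points) between adjacent covered sites up to 5 kb apart, against their distance (x axis, bp, log scale). Points are pairs in the 4 Hox windows with the SD of the difference over 3 libraries, and black lines are the mean of the other autosomal pairs in each distance class. Pairs above 80 points occur in every cluster, the largest at 98.4 points in Hoxb.

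Listed sites were also joined into runs wherever neighbours were within 500 bp of each other, and 24 runs of the windows had at least 2 covered sites. Every site was high in 10 of them (41.7%), against 20.3% of 6233 other autosomal runs. Every site was low in 1 (4.17%), against 38.9%. A low and a high site stood together in 4 (16.7%), against 14.5%, and in 8 (33.3%) a partial site stood with sites of another class, against 22.3%. Only 3 runs had 3 covered sites and none had more, so no longer domain could be followed site by site.

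The class of a Hox site was mostly shared by the 3 libraries: of the 70 sites, 68 had the same class in each library as by their mean. This share was not counted for the other covered sites. Between libraries, Hox sites had a median absolute difference of 1.37 points (replicates 1 and 2), 1.34 (1 and 3) and 0.832 (2 and 3). Over all covered sites, not matched on class, it was 0.391, 0.407 and 0.379. At partial sites alone it was 2.45, 3.19 and 3.78 in the Hox windows, against 3.81, 3.57 and 3.41 elsewhere. Libraries were compared site by site with Fisher's exact test (two-sided), adjusted over all 24112 covered sites by Benjamini-Hochberg. No pair of libraries had a called Hox site (0 of 70), where calls were made at adjusted p under 0.05 with a difference of 20 points or more; the chi-square test also called 0. The background of calls over all covered sites was 0.00415% for replicate 2 against replicate 1, 0.00415% for replicate 3 against replicate 1 and 0% for replicate 3 against replicate 2. Counting unadjusted p-values under 0.05 instead gave 8, 3 and 3 Hox sites for these pairs (11.4%, 4.29% and 4.29%), against 3.02%, 3% and 2.84% of all covered sites. These shares were not matched on class either. The smallest adjusted exact p at a Hox site was 0.585.

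The widest spread between libraries was at partial sites. The SD over libraries of the 15 partial Hox sites had a median of 2.50 points and ranged from 0.235 to 11.8, against a median of 3.17 at the other partial autosomal sites. The widest was 96065261 of Hoxb, at 35.3% (exact interval 24.1% to 47.8%), 58.6% (47.6% to 69.1%) and 50% (39.9% to 60.1%) in replicates 1, 2 and 3, over 257 reads. At 96112891 of Hoxb the values were 59.7% (47.9% to 70.8%), 67.9% (56.6% to 77.8%) and 47.6% (37.8% to 57.6%). Replicate 2 was the highest at both. The site at 96194382 of Hoxb, at 10.4% ± 9.28 over only 55 reads, lay just inside the partial class and is poorly measured.

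**Figure D4:**
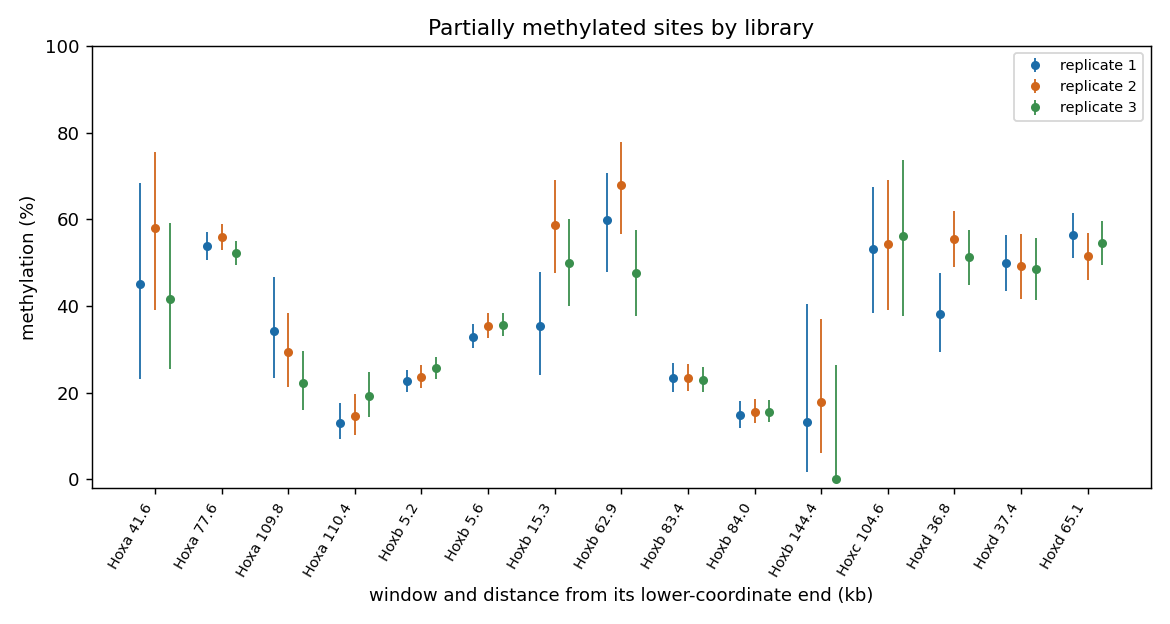
Methylation (y axis, %) of the 15 partial Hox sites in each library, with exact 95% Clopper-Pearson intervals as bars; sites are named by window and distance from its lower-coordinate end in kb (x axis). Intervals of the 3 libraries overlap at most sites, and deeply read sites such as Hoxb 5.2, at 24.0%, are tightly placed.

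The authors' adjusted percent, which multiplies the odds of methylation by 2.02, 1.81 and 1.73 in replicates 1, 2 and 3, raised the partial sites most. By it 46 Hox sites were high, 15 partial and 9 low. The Hoxb pair at 96055174 and 96055587 went from 24.0% and 34.7% to 36.8% and 49.5%. The partial sites of Hoxd at 74537354, 74565069 and 74536752 went from 49.2%, 54.1% and 48.3% to 64.2%, 68.5% and 63.1%.

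The surroundings were measured by few sites. Within 100 kb outside the windows, Hoxd had 10 covered sites below it, averaging 59.2% ± 0.805 (SD, n = 3) with 4 low and 6 high, and 1 above it, which was low. Around Hoxa, 2 sites below averaged 97.1% ± 1.13 and 2 above 80.3% ± 6.42. Hoxb had 1 site below, at 1.42% ± 1.37, and 3 above, at 64.4% ± 1.22. Hoxc had 0 covered sites below and 2 above, at 78.7% ± 0.372. These are too few to compare the clusters with their flanks.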

How the data were processed

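Genomic DNA of 3 ID8 libraries was assayed by DREAM and sequenced on an Illumina HiSeq2500, per the labels' protocols. Bowtie2 and SAMtools, and the builds mm9 and rn4, are named in the submitters' processing notes; their versions, the site position's convention and any collapsing of duplicates are not stated there or in the labels. The authors deposited counts of methylated, unmethylated and total reads per site, not normalized, with a raw and an adjusted percent. A further table of summed counts was not used.

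Levels were computed from each library's counts where all 3 libraries had 10 reads or more. Python 3.11.15, pandas 2.3.3 and scipy 1.17.1 were used. Differences within libraries were tested by exact sign-flip permutation and pairs of libraries by Fisher's exact test. The latter was also run on data simulated with the depths of replicates 1 and 2 and counting error alone. With the calling rule above, it recovered 32% of changes of 20 points and 82% of changes of 50 points among 24112 sites. That rule also asks for an observed difference of 20 points, so the 32% reflects this limit as well as the test.

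Sites named singly were the 4 highest and 2 lowest of each cluster, its largest step between adjacent sites up to 5 kb apart and, where there were 6 or fewer, its partial sites; others were chosen after their values were seen. The windows, members and lists were chosen with earlier results of these data known. The alternatives were minimums of 5 and 50 reads, the adjusted percent, leaving out each library, 1 value per run, summed reads, a high class from 80%, a chi-square test, clustered sites within 1 kb and other divisions of the windows. Not every alternative was run for every result. Sites were placed on no gene, since no mm9 annotation was used here.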

Additional observations from a re-analysis of the deposited data

Results flagged for a closer look

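Reads were also counted at Hox sites that the comparisons leave out because some library had fewer than 10 reads. Summed over the libraries, 35 such sites had at least 10 reads. They are listed because methylated reads were above 3 of the total in each cluster, a low bar that says nothing of the level. In Hoxa, 69 of 82 reads at 5 sites were methylated (84.1%, exact Clopper-Pearson interval 74.4% to 91.3%). In Hoxb it was 115 of 193 at 10 sites (59.6%, interval 52.3% to 66.6%), in Hoxc 88 of 159 at 8 sites (55.3%, interval 47.3% to 63.2%) and in Hoxd 152 of 272 at 12 sites (55.9%, interval 49.8% to 61.9%). Of the 35 sites, 19 were high, 8 partial and 8 low. By site, 3 of 5 were high in Hoxa, 5 of 10 in Hoxb, 5 of 8 in Hoxc and 6 of 12 in Hoxd. The percentages are of summed reads and are not on the scale of the cluster means, which weight sites equally.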

How the results depend on the processing

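The higher level of the Hox windows kept its direction under every alternative run for it, which left out 1 value per run and summed reads. Against the other autosomal sites it was 25.8 to 26.5 points with 1 library left out, and among clustered sites 33.3 points with neighbours counted within 1 kb. The cluster means stayed within the SD between libraries in all 12 cases of 1 library left out, for Hoxb with at least 50 reads and for Hoxd with 1 value per run, and moved by more than it in the other cases. With at least 50 reads Hoxa was at 70.3%, Hoxc at 81.8% and Hoxd at 63.1%. With at least 5 reads the means were 75.5% (Hoxa), 64.6% (Hoxb), 68.5% (Hoxc) and 66.7% (Hoxd). By the adjusted percent they were 78.4%, 64.5%, 84.2% and 69.4%. With 1 value per run of sites Hoxa was at 72.9%, Hoxb at 61.6% and Hoxc at 81.9%. With reads summed over sites the means were 76.2%, 43.9%, 67.6% and 58.1%. These alternatives change which sites enter or how they weigh; the cause was not tested further. Hoxa minus Hoxc reversed to 7.0 points with at least 5 reads. The difference between the lower and higher part of Hoxb reversed to 2.17 points by the adjusted percent and to 7.19 with the ordered sites divided evenly, and that of Hoxc to -11.6 with the latter. The counts of high sites stayed within 1.5 times, and calls between libraries stayed at 0 under each alternative. Depth limits Hoxc most: 7 of its sites had 50 reads in every library. No paired analysis was possible because all libraries belong to 1 group, so that no sample groups share replicate numbers; the differences within libraries are between sets of sites.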

Other observations

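Some stretches of the windows had no covered site but were read thinly, and all listed sites were therefore summed in segments of 10 kb. In Hoxc, from 70 to 80 kb and from 80 to 90 kb, 0 of 12 and 0 of 7 reads were methylated (exact Clopper-Pearson upper bounds 26.5% and 41.0%). The segment before them, from 60 to 70 kb, had 23 of 72 (31.9%, interval 21.4% to 44.0%). Within it the site at 102812522 had 0 of 30 methylated reads, with an upper bound of 11.6%, and that at 102807156 had 22 of 31. In Hoxd, from 80 to 90 kb, 15 of 58 reads were methylated (25.9%, interval 15.3% to 39.0%). Within it the sites at 74587961 and 74588057 had 2 of 28 and 3 of 19 methylated reads. Most of the methylated reads lay at other listed sites of the segment. The segment before it was at 99.1%, and the segment after it had 13 of 13 methylated reads at 1 listed site (interval 75.3% to 100%). In Hoxb, from 90 to 100 kb, 43 of 48 were methylated (89.6%, interval 77.3% to 96.5%). These segments were chosen after their values were seen, and the values are a description.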
